A study of Homo sapiens with 82 samples.

Results

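Persistent PPARG sites without LXRB are stretches of the genome of HT29 cells, a human colorectal adenocarcinoma line, where PPARG was detected by ChIP-seq at both 2 and 48 h of treatment with its agonist rosiglitazone and where no LXRB peak was called under the LXR agonist GW3965. Peaks of replicates 1 and 2 that shared 1 bp or more were joined into 1 site. Of 14249 PPARG sites at 2 h, 7921 overlapped a PPARG site at 48 h, and 3109 of those overlapped no peak in any of the 4 LXRB libraries and are the members described here, chosen by the presence of PPARG and LXRB peaks. Sites of the other kinds numbered 4812 persistent sites with an LXRB peak, 3163 transient sites without LXRB, which had no matching 48 h site, and 3165 transient sites with LXRB.

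All groups were HT29 cells moved to medium with charcoal-treated serum before treatment, given either the carrier DMSO or 10 μM of a drug. PPARG was assayed after 2 and 48 h of rosiglitazone, LXRB after 2 and 48 h of GW3965, H3K27ac and RNA polymerase II (RNAP2) in DMSO and at 24 or 48 h of either drug, and JunD in DMSO only, with 2 replicate libraries in each group. LXRA was assayed after 2 and 48 h of GW3965 through a Flag tag on an LXRA transgene carried by G418-selected HT29 cells, so its peaks describe an added receptor and not the endogenous one. PPARG and LXRB were therefore never assayed under the same drug, and the absence of LXRB at a member refers to cells given GW3965. The DMSO libraries of ChIP-seq carry no time in the labels, which also leave unstated whether replicates came from separate cultures, so p-values measure the spread between libraries, which may be technical. RNA was sequenced after 24 and 48 h of DMSO, GW3965, rosiglitazone or another LXR agonist, T0901317, with 4 libraries in each group. The T0901317 libraries entered the RNA fits and the ranges of marker genes, but T0901317 was not compared with DMSO here.

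PPARG is a nuclear receptor that binds DNA as a heterodimer with a retinoid X receptor and, when a ligand such as rosiglitazone is bound, recruits coactivators, many of which acetylate histones. It is best known as the master regulator of fat cell differentiation and lipid storage and is also abundant in the epithelium of the colon. LXRA and LXRB are sterol-sensing receptors that share the same heterodimer partner, JunD is a member of the AP-1 family, H3K27ac marks active promoters and enhancers, and RNAP2 marks transcribed DNA and active regulatory regions.

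The values that chose the members were PPARG and LXRB peaks, and they are given as a description only. Each peak carries a score, read from its range as minus 10 times the log10 of the peak caller's p-value, with 100 as the lowest value in the files. At members the median PPARG score was 669 and 374 in the 2 h replicates and 384 and 242 in the 48 h replicates. Transient sites without LXRB had lower 2 h medians of 239 and 158, and persistent sites with LXRB had higher ones of 1000.2 and 624. The median member was 808 bp wide, against 696 bp for transient sites and 1081 bp for persistent sites with LXRB. Scores near 3100 recurred in the strongest peaks, so the order among those has little meaning.

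The limits of the rule were soft on both sides. All 4 PPARG libraries had a peak at 3068 members, and 247 members had a lowest score under 110, close to the floor of the files. Just outside, 1451 of the 3163 transient sites overlapped a 48 h peak of 1 replicate or unmatched peaks of both, at a median score of 150, and replicate 1 supplied 1285 of these, having 15378 peaks against 8933 in replicate 2. On the side of LXRB, 192 members, or 6.18%, had an LXRB peak within 1 kb, while 920 persistent sites with LXRB owed their place to a peak in 1 of 4 libraries, whose median score was 125. The nearest LXRB peak lay at a median of 30.1 kb from a member. Of the members, 301 (9.68%) lay within 10 kb of another member and 437 (14.1%) within 10 kb of a persistent site with LXRB. These distances were not compared with those of other sites.

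The 5 members with the highest PPARG scores, ranked by the lowest percentile among the 4 libraries, show what a strong site of this kind looks like. Coordinates are in build hg19, and the genes around the sites were not analysed here. P1, at chr2:26496218-26497725, had a PPARG score of 3100 in all 4 libraries and lay 27.8 kb from the nearest LXRB peak. Its H3K27ac score was 262 and 278 after 24 h and 326 and 434 after 48 h of rosiglitazone, whereas only 1 of the other 6 libraries had a peak, a 48 h GW3965 replicate at 129. RNAP2 was present at P1 in all 10 libraries, from 158 to 433, including both DMSO libraries.

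P5, at chr9:79526781-79529149, was the most isolated of the 5, at 536 kb from the nearest LXRB peak. It had no LXRA peak in any library, weak JunD peaks of 118 and 160, and H3K27ac scores between 420 and 676 in the 4 rosiglitazone libraries against 1 peak of 125 in the other 6. P2 (chr13:20772493-20773668), P3 (chr1:19482668-19484593) and P4 (chr13:114916494-114917992) carried H3K27ac in all 10 libraries. At P2 the mark ranged from 152 to 1102 without rosiglitazone and from 1484 to 2493 with it, and the groups did not overlap. At P4 the groups overlapped, because GW3965 libraries reached 1359 and the rosiglitazone library with the lowest score was at 1126.

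LXRA was present at a minority of members. It had a peak at 32.2% (95% Wilson interval 30.5 to 33.8) and 20.01% (18.6 to 21.4) of members in the 2 h replicates and at 20.7% (19.4 to 22.2) and 36.9% (35.2 to 38.6) in the 48 h replicates. These intervals, and all others here, cover counting error only, and the gap between replicates of 1 time point was wider than they are. Sites of both LXRA replicates covered 596 members at 2 h and 611 at 48 h, with 307 in common. The replicates of the members' shares overlapped between 2 and 48 h, and with 2 libraries a time point no test of the times could pass.

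Transient sites without LXRB had LXRA peaks at 21.9% to 42.3% and persistent sites with LXRB at 82.6% to 96.2%. The difference from transient sites was -4.70 percentage points (SD 4.79 over 4 libraries) and that from persistent sites with LXRB was -62.3 points (SD 4.06), both in the same direction in 4 of 4 libraries. The first of these came mostly from 2 h, at -10.1 and -7.34 points, and was small at 48 h, at -1.13 and -0.22 points, a split by time that was not tested. The exact sign-flip permutation test, 2-sided, gave p = 0.125 for each, the smallest that 4 libraries allow, and 0.2 after Benjamini-Hochberg adjustment over the 8 comparisons of this kind. Where LXRA was called at a member its peak was weak, with median scores from 162 to 210 across libraries, against 393 to 670 at persistent sites with LXRB.

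In all, 1630 members, or 52.4%, had no LXRA peak in any of the 4 libraries, beside 46.8% of transient sites, 1.25% of persistent sites with LXRB and 22.7% of all PPARG sites at 2 h. Another 304, or 9.78%, had one in all 4, beside 12.5%, 76.9% and 46.3%. The 3 members with the highest mean LXRA score were L1 (chr9:129747012-129747737), L2 (chr19:42279020-42280010) and L3 (chr13:33430224-33430983). L1 lay 0.128 kb and L2 0.005 kb from an LXRB peak, both just outside the overlap that would have removed them, and L3 lay 8.892 kb away. LXRA scores at L3 were 721 and 378 at 2 h and 1441 and 2123 at 48 h, and 9 of 10 RNAP2 libraries had no peak there.

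JunD, assayed in DMSO only, had a peak at 10.2% and 13.7% of members. The shares were 10.5% and 15.1% at transient sites and 64.2% and 69.6% at persistent sites with LXRB. Members differed from transient sites by -0.81 points (SD 0.76) and from persistent sites with LXRB by -54.9 points (SD 1.33), and the exact permutation test could not go below p = 0.5 with 2 libraries. The sign of the first difference turned in some alternatives. JunD sites of both replicates covered 267 members, or 8.59%. At these the polymerase was already common, with RNAP2 peaks at 70.8% of the 267 on average in DMSO, 42.0% in GW3965 and 83.9% in rosiglitazone. At the 2618 members with no JunD peak the same averages were 26.6%, 17.6% and 37.0%.

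The 3 members with the highest JunD scores, J1 (chr18:3655045-3656304), J2 (chr17:48771351-48772917) and J3 (chr1:43404699-43405594), all lay within 0.239 kb of an LXRB peak. All 3 had H3K27ac and RNAP2 peaks in all 10 libraries of each mark, with a lowest H3K27ac score of 1025 and a lowest RNAP2 score of 1153. Their PPARG scores were modest by contrast, from 120 to 941. Members with neither LXRA nor JunD in any library numbered 1533, or 49.3% of all members, beside 44.8% of transient sites, 1.02% of persistent sites with LXRB and 21.4% of all PPARG sites at 2 h.

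**Figure D1:**
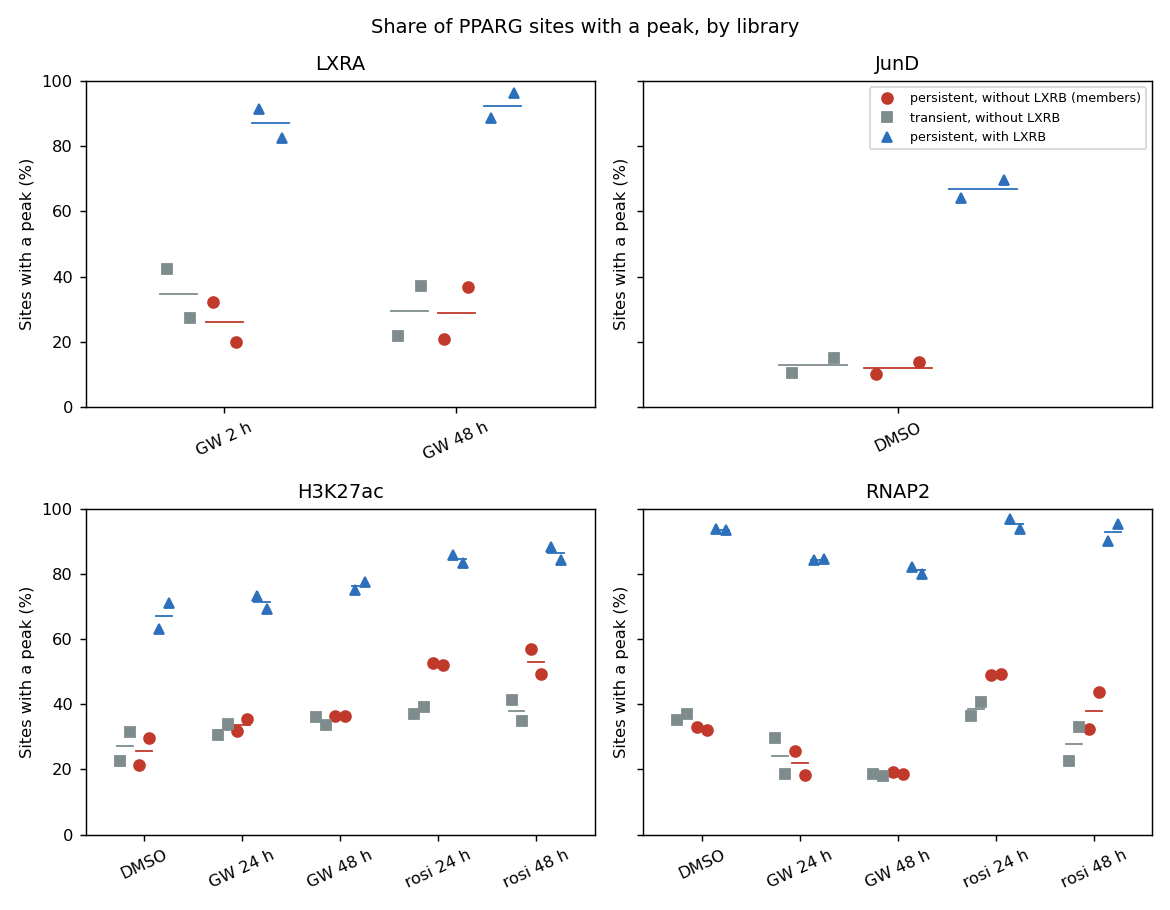
Percent of sites with a peak (y axis) in each ChIP-seq library, by treatment (x axis; GW is GW3965 and rosi is rosiglitazone), for the 3109 members (red circles), 3163 transient sites without LXRB (grey squares) and 4812 persistent sites with LXRB (blue triangles). Each point is 1 library and each line the mean of 2; H3K27ac at members reached 49.2% to 57.0% with rosiglitazone against 21.5% to 36.4% in the other libraries.

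H3K27ac was found at more members in every rosiglitazone library than in any other library. It marked 21.5% and 29.8% of members in DMSO, 31.8% and 35.3% after 24 h and 36.3% and 36.4% after 48 h of GW3965, and 52.6% and 51.9% after 24 h and 57.0% and 49.2% after 48 h of rosiglitazone. The mean was 52.7% (SD 3.21, n = 4 libraries) with rosiglitazone and 35.0% (SD 2.15, n = 4) with GW3965. The difference of 17.7 points had p = 0.0286 in the exact 2-sided permutation test, the smallest that 4 against 4 libraries allow, and the same value after adjustment over 4 comparisons.

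Transient sites without LXRB differed less between the treatments. H3K27ac marked 22.7% and 31.6% of transient sites in DMSO, 30.4% to 36.04% with GW3965 and 34.8% to 41.2% with rosiglitazone. The share of members minus that of transient sites was therefore -1.83 to -1.21 points in DMSO, 0.27 to 2.68 points with GW3965 and 12.8 to 15.8 points with rosiglitazone. This difference between site sets was itself 13.2 points larger with rosiglitazone than with GW3965 (exact permutation p = 0.0286, adjusted p = 0.0286, again the smallest possible), with no overlap of the 4 and 4 libraries. Permuted within time points, this and the other 3 comparisons of rosiglitazone with GW3965 could not go below an exact p of 0.0556, and within time points and replicate numbers not below 0.125. Members and transient sites were split by PPARG peaks in rosiglitazone cells, a choice that the p-values do not account for. The site sets also differed in PPARG score, and the part of either was not tested. Over all 10 libraries the members exceeded transient sites by 6.12 points (SD 7.46), in 8 of 10 libraries, which did not pass the adjustment (exact permutation p = 0.0352, adjusted p = 0.0938), although it did (adjusted p = 0.00521) against transient sites with no 48 h peak in either replicate.

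Persistent sites with LXRB were more often acetylated in all 10 libraries, from 63.1% to 88.3%. Their share also stood higher with rosiglitazone, at 83.4% to 88.3%, than with GW3965, at 69.3% to 77.4%, without overlap, and was 63.1% to 71.1% in DMSO. Members were 36.9 points (SD 4.32) below them on average (exact permutation p = 0.00195, adjusted p = 0.0078). The tests over 10 libraries of H3K27ac or RNAP2 took each library as a unit, although these were 2 replicates of each of 5 conditions. The share of sites covered depends on how much of the genome each library's peaks cover, which was 56.2 to 75.5 Mb with rosiglitazone, 62.1 to 73.1 Mb with GW3965 and 49.4 to 67.9 Mb in DMSO, so that covered length overlapped between the drugs. H3K27ac and RNAP2 of a condition were called against 1 shared input library, so input and condition cannot be told apart. The part of either in these differences was not tested.

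**Figure D2:**
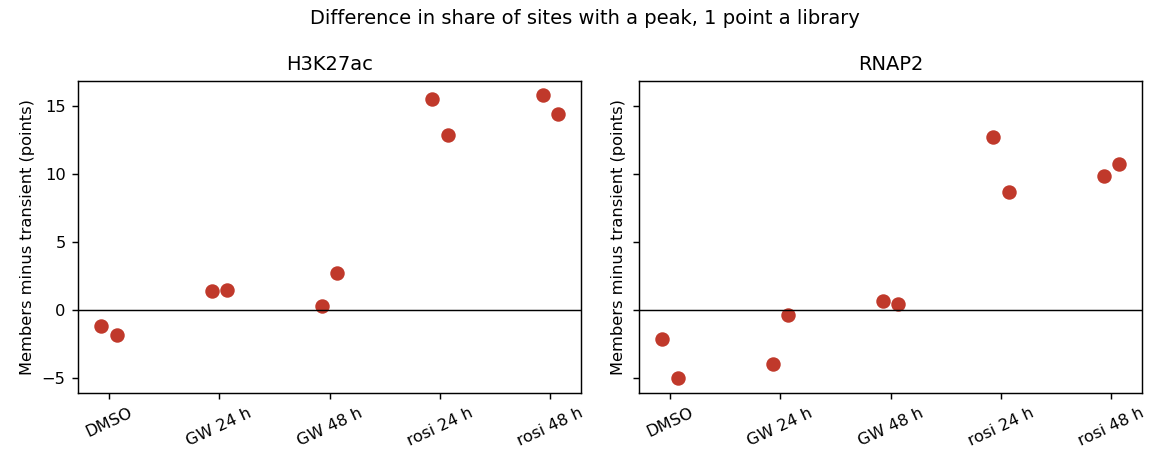
Percent of members with a peak minus percent of transient sites with a peak (y axis, percentage points), by treatment (x axis), for H3K27ac and RNAP2; each point is 1 library and the line marks 0. All 8 rosiglitazone points lie between 8.68 and 15.8, above every DMSO and GW3965 point. Members had higher PPARG scores than transient sites, and the part of the score was not tested.

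Gains were counted as sites called in both replicates of a drug group with no peak in either DMSO replicate. Losses were the reverse, sites called in both DMSO replicates with no peak in either replicate of the drug group. The 4 drug groups of each mark were set against the same DMSO libraries, so their counts are not independent. H3K27ac was gained at 582 members (18.7%) after 24 h and 579 (18.6%) after 48 h of rosiglitazone, beside 11.2% and 11.0% of all PPARG sites at 2 h and 11.6% and 11.9% of persistent sites with LXRB. With GW3965 it was gained at 103 members (3.31%) and 205 members (6.59%), beside 2.52% and 5.66% of all sites. Losses were rare, with 5 and 4 members after rosiglitazone and 13 and 16 after GW3965, beside 0.849%, 0.519%, 0.575% and 0.533% of all sites. In an alternative rule, absence meant no site of both replicates, in DMSO for gains and in the drug group for losses. Losses of H3K27ac were then 24 and 11 members with rosiglitazone and 91 and 68 with GW3965, and gains with GW3965 were 241 and 376. Shares over all sites under that rule are not given here, so these counts describe members only.

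The strictest pattern was a peak in all 4 rosiglitazone libraries and in none of the other 6. It held at 165 members (5.31%), 41 transient sites (1.30%) and 2.17% of all PPARG sites at 2 h. The mirror pattern with GW3965 held at 3 members, beside 0.0842% of all sites. H3K27ac was called in none of 10 libraries at 1050 members and in all 10 at 484, beside 22.4% and 33.0% of all sites. At those 484 constant members the median H3K27ac score rank within a library lay at percentiles 53.5 and 61.0 in DMSO and 76.8 to 80.2 with rosiglitazone, while the 443 constant transient sites had 62.7 and 70.0 in DMSO and 72.6 to 77.0 with rosiglitazone. GW3965 libraries lay between, from 65.3 to 76.4 at members.

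The 5 members with this strict pattern and the highest mean H3K27ac score are H1 to H5. H1 (chr6:129810366-129811070) had H3K27ac scores of 2436 and 1766 at 24 h and 3144 and 2394 at 48 h of rosiglitazone and none elsewhere, although its PPARG scores were only 164 to 384. H2 (chr15:38513979-38514886) had scores of 3100, 3100 and 3019 but 215 in replicate 2 at 48 h, and PPARG scores of 2100 to 3007. H3 (chr15:39425205-39426152) behaved in the same way, with 149 in that replicate against 2833 to 3100 in the others, and had LXRA peaks in all 4 libraries, from 168 to 381. H4 (chr1:16676299-16677034) ranged from 1158 to 2254, and H5 (chr2:198572824-198573722), 94.2 kb from an LXRB peak, from 980 to 1619. None of the 5 had a JunD peak, and H1 and H4 lay within 0.456 kb of an LXRB peak.

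**Figure D3:**
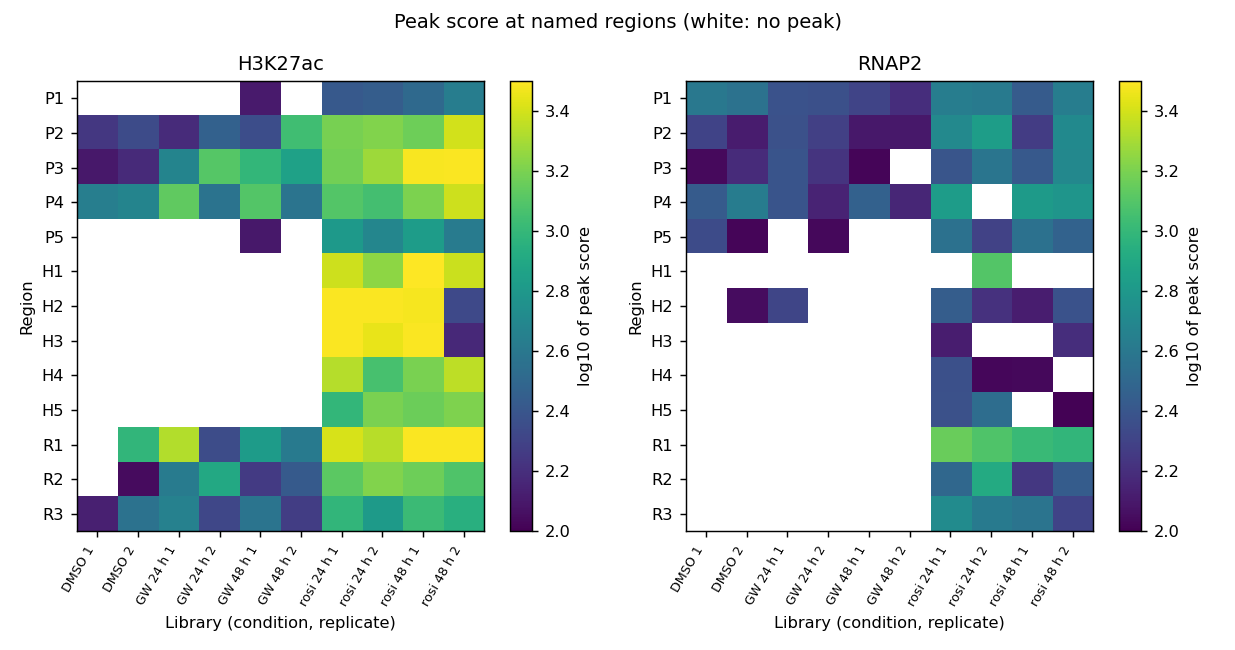
Peak score on a log10 scale (colour) at 13 named members (rows: P, highest PPARG scores; H and R, H3K27ac or RNAP2 in all 4 rosiglitazone libraries and no other) in each H3K27ac and RNAP2 library (columns); white means no peak. H1 to H5 are white in all 6 DMSO and GW3965 H3K27ac libraries, whereas R1 to R3 had H3K27ac in most of those and RNAP2 in none.

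RNAP2 was found at 33.0% and 32.0% of members in DMSO, 25.6% and 18.2% after 24 h and 19.2% and 18.5% after 48 h of GW3965, and 49.0% and 49.2% after 24 h and 32.5% and 43.6% after 48 h of rosiglitazone. The rosiglitazone mean was 43.6% (SD 7.84, n = 4) and the GW3965 mean 20.4% (SD 3.49, n = 4), a difference of 23.2 points (exact permutation p = 0.0286, adjusted p = 0.0286). Limited to the strongest 20000 peaks of each library, a setting chosen after seeing the data, the difference was 11.7 points and no longer passed (exact permutation, adjusted p = 0.0571). The DMSO libraries lay between the drugs except for 1 replicate after 48 h of rosiglitazone, which at 32.5% fell between the DMSO values. Transient sites also had fewer RNAP2 peaks with GW3965, at 18.1% to 29.6%, than in DMSO, at 35.1% and 37.1%. RNAP2 peaks covered 36.9 to 42.2 Mb with GW3965, 48.7 to 48.8 Mb in DMSO and 44.4 to 67.0 Mb with rosiglitazone, so covered length moved with the drug for this mark and its part in the shares was not tested.

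Members and transient sites of a library were marked by the same peaks, so they were also compared within each library. The share of members minus that of transient sites was -5.05 and -2.12 points in DMSO, -4.02 to 0.64 points with GW3965 and 8.68 to 12.7 points with rosiglitazone. The shift between the drugs was 11.3 points (exact permutation p = 0.0286, adjusted p = 0.0286), with no overlap between the 4 and 4 libraries. The limits given for H3K27ac, the choice of members by PPARG peaks and their PPARG score, hold here too. Over all 10 libraries the difference of 3.14 points (SD 6.64) was positive in 6 of 10 and did not pass (exact permutation p = 0.162, adjusted p = 0.216). Persistent sites with LXRB had RNAP2 at 80.1% to 96.7%, and members were 57.3 points (SD 7.05) below them, in 10 of 10 libraries (exact permutation p = 0.00195, adjusted p = 0.0078).

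RNAP2 was gained at 347 members (11.2%) after 24 h and 164 (5.28%) after 48 h of rosiglitazone, beside 4.38% and 2.04% of all PPARG sites at 2 h. It was lost at 50 and 65 members, beside 1.65% and 3.02% of all sites. Under the alternative rule of absence given for H3K27ac, the rosiglitazone gains of RNAP2 were 580 and 297 members and the losses 159 and 268. Shares over all sites under that rule are not given here. With GW3965 RNAP2 was gained at 22 (0.708%) and 31 members (0.997%), beside 0.351% and 0.604% of all sites. It was lost at 195 (6.27%) and 312 members (10.0%), near the 5.56% and 11.1% of all sites. RNAP2 was present in both DMSO and no GW3965 library at 136 members (4.37%), near the 3.80% of all sites. It was called in all 10 libraries at 211 members (6.79%), beside 35.8% of all sites.

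Both marks were gained together at 136 members after 24 h of rosiglitazone, which was 23.4% of those that gained H3K27ac and 39.2% of those that gained RNAP2. RNAP2 was gained at 11.2% of all members at that time. After 48 h the joint count was 60, or 10.4% and 36.6%, and RNAP2 was gained at 5.28% of all members. The joint gains made up 4.37% and 1.93% of members, 1.07% and 0.348% of transient sites, 0.707% and 0.561% of persistent sites with LXRB and 1.50% and 0.709% of all PPARG sites. At 24 and 48 h of GW3965 they held at 3 and 8 members, beside 0.0491% and 0.119% of all sites. The marks of a condition share an input library, so these joint counts are not independent of each other.

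A peak of RNAP2 in all 4 rosiglitazone libraries and none of the other 6 was found at 69 members (2.22%), 14 transient sites (0.44%) and 0.821% of all PPARG sites. R1 (chr2:27191778-27192665) led these with RNAP2 scores of 1441 and 1225 at 24 h and 1042 and 967 at 48 h, and H3K27ac in 9 of 10 libraries, the exception being a DMSO replicate. R2 (chr21:30546725-30547447) had RNAP2 scores of 316, 829, 175 and 275 in the same order, and R3 (chr1:64128357-64129558) had 527, 411, 377 and 200.1. H3K27ac at R3 ranged from 135 to 457 in the 6 libraries without rosiglitazone and from 659 to 1056 with it, without overlap. R1 lay 0.292 kb from an LXRB peak, whereas R3 was 37.1 kb away.

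Both marks were more frequent at members with higher PPARG scores. All 14249 sites were divided into 4 bins of equal number by their mean 2 h score, at 221, 380 and 767. From the lowest to the highest bin, which held 329, 704, 1130 and 946 members, H3K27ac marked 14.7%, 19.2%, 27.3% and 32.2% of members in DMSO, 23.6%, 26.1%, 36.3% and 43.9% with GW3965, and 32.7%, 39.8%, 51.0% and 71.2% with rosiglitazone. The excess with rosiglitazone over GW3965 was 9.12, 13.7, 14.7 and 27.3 points. For RNAP2 it was 16.6, 18.5, 21.2 and 31.3 points.

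Transient sites were set beside members of the same bin. In the third bin, 342 transient sites had H3K27ac at 38.6% in DMSO, 45.6% with GW3965 and 50.6% with rosiglitazone, next to 27.3%, 36.3% and 51.0% at members. In bins 1 and 2, H3K27ac with rosiglitazone marked 33.5% and 41.5% of transient sites, next to 32.7% and 39.8% of members. In DMSO it marked 22.9% and 30.7% of transient sites, next to 14.7% and 19.2%. RNAP2 with rosiglitazone was at 31.4%, 35.1% and 36.5% of transient sites in the lower 3 bins, next to 29.9%, 33.1% and 40.7% of members. In DMSO it was at 34.0%, 36.7% and 44.7%, next to 21.1%, 25.8% and 31.7%. The excess of transient sites with rosiglitazone over GW3965 was 4.22, 5.02 and 4.97 points in the lower 3 bins for H3K27ac. For RNAP2 it was 12.5, 11.98 and 9.21 points, below the members' 16.6, 18.5 and 21.2. The highest bin held 19 transient sites, too few to compare. Since PPARG score chose the members in part, these values are a description with no test.

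**Figure D4:**
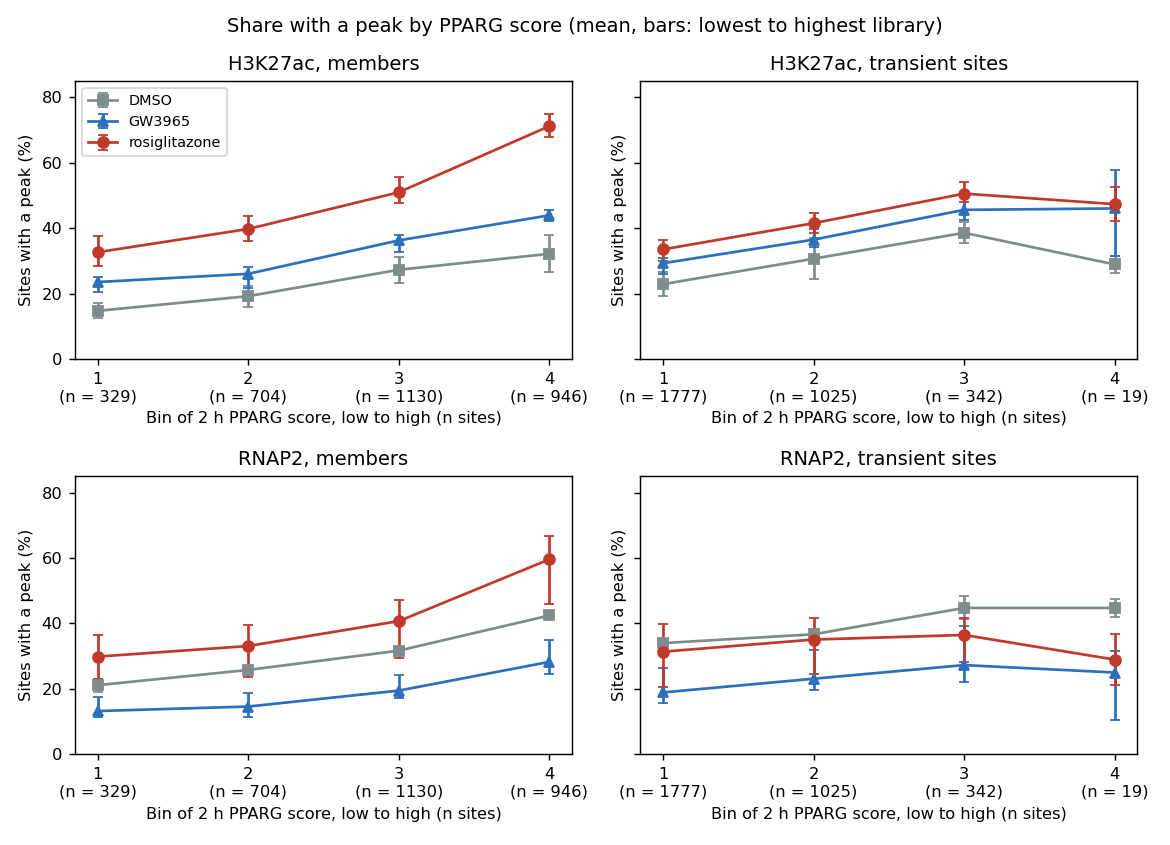
Percent of sites with an H3K27ac or RNAP2 peak (y axis) against the bin of the mean 2 h PPARG score (x axis, 1 lowest, number of sites in brackets), for members (left) and transient sites (right). Points are means over 2 DMSO, 4 GW3965 and 4 rosiglitazone libraries, and bars run from the lowest to the highest library; at members the rosiglitazone line for H3K27ac climbs from 32.7% to 71.2%.

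Members without LXRA had fewer marks throughout, and the order of the drugs was the same. At the 1630 members with no LXRA peak, H3K27ac averaged 15.6% in DMSO, 22.4% with GW3965 and 39.1% with rosiglitazone, and RNAP2 averaged 12.2%, 7.07% and 24.0%. At the 611 members with an LXRA site at 48 h the averages were 38.6%, 50.6% and 68.7% for H3K27ac and 62.3%, 39.6% and 74.1% for RNAP2. In each of these classes the 4 rosiglitazone libraries lay above the 4 GW3965 libraries for both marks. The classes also differed in PPARG score, with a median mean score of 378 at members with no LXRA peak and 487 at members with an LXRA peak in any library.

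The receptors behind these sites were checked in RNA, where CPM (counts scaled to library size by edgeR) are levels, and log2 fold changes are against DMSO. In bulk RNA, fewer cells expressing a gene and less RNA per cell cannot be told apart. A gene was called at an adjusted p under 0.01 and at least a 2-fold change, by edgeR's quasi-likelihood test over all genes. Of the listed epithelial markers, some were abundant in all 32 libraries. These were EPCAM (243 to 359 CPM), VIL1 (53.2 to 258), KRT20 (245 to 1505) and LGALS4 (620 to 1259). Others were low, with CDX2 at 6.43 to 20.6, CDH17 at 3.78 to 13.0 and CDX1 at 0.734 to 4.05 CPM. The leukocyte marker PTPRC and the hepatocyte marker ALB did not exceed 0.112 and 0.0649 CPM. The fibroblast collagen COL1A1 was at 2.42 to 8.52 CPM, a range that CDX1 and CDH17 overlapped.

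PPARG RNA was not called with rosiglitazone at either time. It was 41.8 to 47.4 CPM in DMSO and 30.4 to 35.2 CPM with rosiglitazone at 24 h (log2 fold change -0.50, SE 0.07, adjusted p = 3.84e-05), and 76.2 to 85.2 against 50.3 to 67.5 CPM at 48 h (-0.47, SE 0.08, adjusted p = 7.36e-05), so the libraries did not overlap but the change was under 2-fold. With GW3965 PPARG was called lower than in DMSO at 48 h, at 37.0 to 39.97 CPM (log2 fold change -1.08, SE 0.08, adjusted p = 1.78e-09). It was not called at 24 h, at 40.5 to 45.0 CPM. PPARG in the DMSO libraries was higher at 48 h than at 24 h, and no test was made between the times. NR1H3, the gene of LXRA, rose with rosiglitazone at 48 h from between 67.3 and 83.2 CPM in DMSO to between 159 and 165 CPM (log2 fold change 1.09, SE 0.06, adjusted p = 9.28e-11). It was at 0.81 (SE 0.08), short of 2-fold, at 24 h, and it rose with GW3965 by 1.10 and 1.65 on the log2 scale at 24 and 48 h.

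NR1H2, the gene of LXRB, was not called in any of the 4 comparisons, with log2 fold changes from -0.25 to 0.26. It was measured at 43.2 to 66.9 CPM in DMSO. RXRA and RXRB, the heterodimer partners, were not called either, and RXRG had no count in any library of these 3 treatments. JUND was not called, with the largest log2 fold change, -0.70 (SE 0.10), at 48 h of GW3965. With rosiglitazone JUND lay at 111 to 126 CPM against 98.7 to 115 in DMSO at 24 h and at 276 to 391 against 242 to 284 CPM at 48 h.

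Of 29 known targets of PPAR receptors, 26 were tested at 24 h and 25 at 48 h. Rosiglitazone raised 9 at each time and lowered none, beside 0.780% and 1.99% of all genes called higher and 1.40% and 3.87% called lower. Their median log2 fold change was 0.55 at 24 h and 0.58 at 48 h, beside -0.02 and -0.01 over all genes. GW3965 raised 8 and 7, beside 0.445% and 3.24% of all genes, and lowered none at 24 h and 2, TXNIP and G0S2, at 48 h, beside 0.0918% and 2.54%. The list was chosen with earlier results of these data known, so its counts beside those of all genes are a description only. Which of the listed genes lie near members was not analysed here.

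ANGPTL4, a secreted inhibitor of lipoprotein lipase, changed most on the log2 scale among the listed genes with counts in DMSO. It was at 0.191 to 0.894 CPM in DMSO and 17.7 to 21.4 CPM with rosiglitazone at 24 h (log2 fold change 5.02, SE 0.27) and at 0.15 to 0.326 against 20.4 to 35.4 CPM at 48 h (6.75, SE 0.31). PDK4, a kinase that restrains pyruvate oxidation, rose from between 4.23 and 4.85 CPM to between 24.5 and 30.3 CPM at 24 h (2.58, SE 0.10) and from between 4.25 and 5.0 to between 33.3 and 46.7 CPM at 48 h (3.18, SE 0.11). In both genes and at both times the 4 libraries of each group did not overlap.

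Of the 5 listed lipid droplet genes, 4 rose with rosiglitazone at both times and PLIN5 was not called. PLIN2, a coat protein of lipid droplets, rose by 2.79 (SE 0.10) at 24 h and 4.18 (SE 0.18) at 48 h on the log2 scale, PLIN4 by 2.48 and 2.10, PLIN1 by 1.82 and 2.53, and CIDEC, which promotes droplet fusion, by 1.15 and 1.65. Among genes of fatty acid and lipoprotein handling, FABP1, an intracellular fatty acid carrier, rose by 4.30 and 3.96, and the lipoprotein receptor VLDLR rose by 1.89 and 1.21. FABP4 was at 0 in all 4 DMSO libraries at 24 h and at 0.486 to 1.0 CPM with rosiglitazone, and was not tested at 48 h. KLF4, an epithelial transcription factor, rose at 48 h (1.07, SE 0.11) and was short of 2-fold at 24 h (0.73). All these called values had an adjusted p of at most 4.71e-05 by edgeR. GW3965 also raised several of these targets. At 24 and 48 h PDK4 was called at 1.47 and 2.29, FABP1 at 1.80 and 2.54, and PLIN2 at 1.58 and 1.37. PLIN4 (1.14) and VLDLR (1.62) were called higher at 24 h only, and ANGPTL4 (3.81) and CIDEC (1.29) at 48 h only. PLIN1, FABP4 and KLF4 were not called with GW3965. KLF4 was at 0.92 at 24 h and -0.83 at 48 h, short of 2-fold (edgeR adjusted p = 6.82e-07 and 5.77e-06). VLDLR was at -0.59 at 48 h, also short of 2-fold (edgeR adjusted p = 0.00233).

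**Figure D5:**
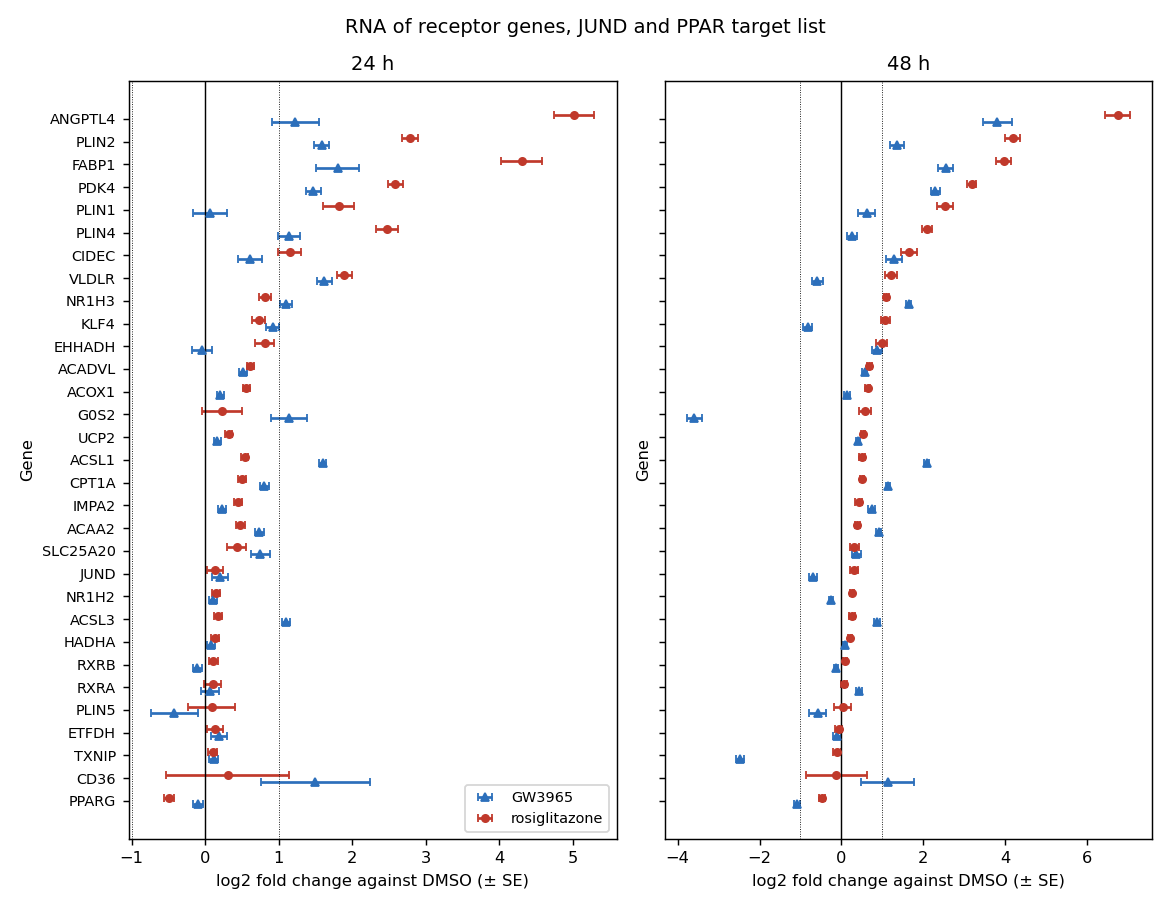
log2 fold change against DMSO (x axis, bars are the SE) of the tested receptor genes, JUND and listed PPAR targets (y axis) at 24 h (left) and 48 h (right) of GW3965 (blue triangles) or rosiglitazone (red circles); dotted lines mark a 2-fold change, and the 2 panels have different x ranges. ANGPTL4 reached 5.02 and 6.75 with rosiglitazone, whereas PPARG lay at -0.50 and -0.47.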

How the data were processed

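HT29 ChIP-seq peaks and RNA-seq counts were used. Per the labels, the submitters' processing notes name Bowtie, MACS and hg19 for ChIP-seq and TopHat, Cufflinks and hg19 for RNA-seq. The authors called peaks in each replicate against an input library, and the deposited peak score was read, from its range, as the minus 10 times log10 p-value that MACS writes. The authors deposited RNA values as whole-number counts per gene without normalization, and for the counting program and strand setting the entry is: not given in the sources used here. Read depth of the ChIP-seq libraries was not analysed here. PPARG libraries had 8933 to 24039 peaks, H3K27ac libraries 23015 to 31824. RNA libraries of DMSO, GW3965 and rosiglitazone had 30834003 to 51332656 counts. Replicate RNA libraries differed by more than sampling noise in all 48 pairs (lowest chi-square per gene 3.66).

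The members and gene lists were chosen with earlier results of these data known. Peaks were read as 0-based intervals, sites were built with Python 3.11.15 code checked against bedtools 2.31.1, and coordinates are printed 1-based. A site was marked by any peak overlapping it by 1 bp. Shares were compared over libraries with exact permutation tests, and Wilson intervals were set at 95%. Tests over members and other sites of the same library used sign flips, and drugs were compared by permuting libraries. Regions were named by rule: the 5 highest by PPARG score, the 5 and 3 highest with H3K27ac or RNAP2 in rosiglitazone libraries only, and the 3 highest by LXRA and by JunD. Genes named were receptors, JUND and listed targets called with rosiglitazone, and TXNIP and G0S2, which were chosen after their values were seen.

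RNA counts of all 16 libraries of a time point, T0901317 included, were filtered for low counts (21781 and 22470 genes kept), TMM-scaled and fitted in R 4.3.3 by edgeR, version 4.0.16. SEs were derived from the quasi-likelihood F statistic. DESeq2 1.42.0, other scaling, no filter, a replicate block and leaving out each replicate were alternatives. Both tools were tested on simulated data with 200 changed genes. One item of the target list is not reported here and was left out of its counts. Genes near members and motifs in them were not analysed here, since no hg19 annotation or genome was used.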

Additional observations from a re-analysis of the deposited data

Results flagged for a closer look

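The excess of members over transient sites differed between the drugs, by 13.2 percentage points for H3K27ac and 11.3 points for RNAP2, each with an exact permutation p of 0.0286 over 4 and 4 libraries, the smallest possible. The 4 rosiglitazone libraries lay above the 4 GW3965 libraries in both marks. Permuted within time points the exact p was 0.0556, and within time points and replicate numbers 0.125, each the smallest possible. The split into members and transient sites used PPARG peaks in rosiglitazone cells, a choice that the p-values do not account for. Members had higher PPARG scores than transient sites. In the lower 3 bins of that score, H3K27ac with rosiglitazone was at 32.7%, 39.8% and 51.0% of members and 33.5%, 41.5% and 50.6% of transient sites. In DMSO it was at 14.7%, 19.2% and 27.3% of members and 22.9%, 30.7% and 38.6% of transient sites. The part of the score in this result was not tested.

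The RNAP2 share of members in GW3965 had 1 library apart from the others, replicate 1 at 24 h with 25.6% against 18.2% to 19.2%. Among RNA values of named genes, 1 of 4 libraries stood apart in 5 of 92 groups, where chance alone, at about 1 group in 20, would flag 4.6. These were RXRB in DMSO at 24 h (43.4 CPM against 44.4 to 44.6), JUND in GW3965 at 24 h (84.9 against 134 to 140 CPM), PDK4 in GW3965 at 48 h (19.1 against 22.6 to 23.2 CPM), PLIN1 in GW3965 at 48 h (1.84 against 1.39 to 1.43 CPM) and FABP1 in GW3965 at 48 h (15.2 against 11.8 to 12.4 CPM).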

How the results depend on the processing

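The 4 comparisons of rosiglitazone with GW3965 kept their direction in every alternative that was run, with H3K27ac from 14.5 to 27.3 points and RNAP2 from 11.7 to 31.3 points, the highest of each coming from the bin of sites with the highest PPARG score. Relative to transient sites the ranges were 10.7 to 16.3 and 7.39 to 16.6 points without that bin, which held 19 transient sites, too few to compare. Their p-values depended on the permutation: with values of 17.7, 13.2, 23.2 and 11.3 points, p was 0.0556 within time points and 0.125 with the replicate block (within time point and replicate number), each the smallest possible. Leaving out replicate 1 or 2 gave 14.7 to 20.7, 11.5 to 14.8, 18.4 to 28.1 and 9.68 to 12.9 points, and -37.3 to -36.6 (H3K27ac) and -57.5 to -57.1 points (RNAP2) against persistent sites with LXRB, where the smallest p the design allows is above the threshold. With the strongest 20000 peaks the RNAP2 difference was 11.7 points (adjusted p = 0.0571). The H3K27ac excess over transient sites passed at 6.94 points where only LXRB sites of both replicates removed a site, at 9.24 points against transient sites with no 48 h peak, and at 6.89 points with peaks limited to 1000 bp, while JunD turned to 0.53, 1.93 and, in the bin of highest PPARG score with its 19 transient sites, 13.7 points, the others being the first pair of these settings. The settings on 20000 peaks, on 1000 bp and on GW3965 and DMSO together were chosen after seeing the data.

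With PPARG peaks of score 200 or more, 1607 members remained by the rule. Counts against DMSO moved most, and shares over all sites under these settings are not given here. Where absence meant no site of both replicates, H3K27ac gains with GW3965 were 241 and 376 and losses 91 and 68 (24 and 48 h), with rosiglitazone losses of 24 and 11. RNAP2 gains were then 68, 86, 580 and 297 (GW3965 24 and 48 h, rosiglitazone 24 and 48 h), and RNAP2 losses were 459 with GW3965 at 24 h and 159 and 268 with rosiglitazone. With peaks of score 200 or more, H3K27ac losses with GW3965 were 6 and 9, RNAP2 gains were 10 (GW3965, 24 h) and 94 (rosiglitazone, 48 h), and RNAP2 losses were 109, 143, 16 and 36. The cause was not tested. In RNA, the counts of called listed genes stayed within 1.5 times under DESeq2, other scaling, no filter, the replicate block and each left-out library, and 1 uncalled value turned, RXRA with GW3965 at 24 h (-0.035 without GW3965 replicate 3, range over left-out GW3965 replicates up to 0.20). Same-numbered RNA libraries did not deviate together (correlations from -0.10 to 0.08), so the numbers were not taken as pairs. Alternatives on genes near members and on motifs were not run. Peak lists hold no depth, which limits every share.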

Other observations

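Members made up 16.4% of the 2 h PPARG sites on chromosome 20 (67 of 409) and 26.0% on chromosome X (90 of 346), with the other chromosomes between. Over all chromosomes they were 3109 of 14249 sites, and the spread between chromosomes was not tested. LXRA sites of both replicates were found at 2 h without a 48 h site at 289 members and at 48 h without a 2 h site at 304, close in number, with median mean PPARG scores of 486 and 458.

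Besides those named above, listed targets that rose with GW3965 included ACSL1, which activates long-chain fatty acids, by 1.60 (SE 0.05) at 24 h and 2.08 (SE 0.07) at 48 h on the log2 scale. CPT1A, which admits fatty acids to mitochondria, rose by 1.13 (SE 0.05) at 48 h. TXNIP, an inhibitor of thioredoxin, was lower with GW3965 than in DMSO at 48 h, at 95.04 to 137 against 583 to 640 CPM, and was not called at 24 h, at 89.5 to 99.5 against 81.7 to 97.4 CPM. G0S2, an inhibitor of triglyceride lipase, was called lower at 48 h, at 2.49 to 3.46 against 30.7 to 40.1 CPM, but higher at 24 h, at 1.20 to 1.69 against 0.367 to 0.865 CPM (log2 fold change 1.14, SE 0.25, edgeR adjusted p = 0.00821). In both genes the DMSO libraries were higher at 48 h than at 24 h, and the 2 times come from separate tables, with no test between them. ACSL1 and CPT1A were not called with rosiglitazone but rose short of 2-fold (edgeR adjusted p of at most 4.92e-06). At 24 and 48 h ACSL1 was at 0.54 and 0.50 and CPT1A at 0.50 and 0.50, and the difference between the drugs was not tested. The called values of ACSL1 and CPT1A with GW3965 had an adjusted p of at most 2.01e-12 by edgeR.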
